A study of Mus musculus with 6 samples.

Results

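Dividing T cells of mouse pancreatic tumors were examined, defined as the cells of the annotated cluster Cycling_T that carried at least as many T cell as NK cell transcripts. A cell was a member when its UMIs (counted RNA molecules) of Cd3e, Cd3d, Cd3g, Trac and Trbc2, which encode chains of the T cell receptor complex, were at least as many as its UMIs of Ncr1, Klrb1c, Klre1, Tyrobp and Fcer1g, which encode receptors and adaptors of NK cells. Members were thus chosen by these measured UMIs and by the annotated cluster. By this rule 187 of the 349 Cycling_T cells were members, or 8.97% of the 2084 annotated T and NK cells. The other 162 Cycling_T cells held more NK than T cell UMIs and are called NK-transcript Cycling_T cells here. They serve only as a reference.

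CD45+ cells had been isolated with beads from subcutaneous 6694c2vTRP1 tumors, a pancreatic ductal adenocarcinoma line grown in C57BL/6 mice, and sequenced from the 5' end of transcripts. Mice received intraperitoneal PBS, 26 µg per mouse of mono-IL10, an IL-10 made as a monomer, or IL10/2-Trikine (an IL-10 molecule that also engages the IL-2 receptor β chain) at 30.6 µg per mouse. Each mouse was given 2 doses on alternate days from day 8, and tumors were taken on day 14. Each group was 5 mice carrying their own hashtag antibodies, pooled into 1 library, so treatment and library cannot be told apart in any comparison below. All mice bore the same tumor line and no genetic change was named in any group. Mice of both sexes bore this tumor line, and an age is stated for treatment experiments with a related line of this tumor but not for the sequenced mice in the sources used here.

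When a T cell recognizes antigen, the CD3 chains of its receptor are phosphorylated by Lck and the signal passes through the adaptor Lat and its partners, after which the cell can enter division. Dividing cells first copy their DNA with the replication machinery and then separate the copies with the mitotic spindle. CD8 T cells carry the coreceptor made from Cd8a and Cd8b1 and kill target cells with granzymes, and the IL-2 receptor β chain is shared by T and NK cells.

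PBS tumors gave 39 members, mono-IL10 tumors 102 and IL10/2-Trikine tumors 46. They made up 70.9% of the 55 Cycling_T cells in PBS, 85.0% of 120 in mono-IL10 and 26.4% of 174 in IL10/2-Trikine, a split that the rule itself produced and that was not tested. A mouse had been assigned to 151 members, 31 of them PBS, 85 mono-IL10 and 35 IL10/2-Trikine, and the 36 without a mouse entered only the descriptions. PBS mice 1 to 5 held 5, 8, 6, 9 and 3 members, mono-IL10 mice 32, 16, 3, 23 and 11, and IL10/2-Trikine mice 4, 14, 4, 3 and 10. The values of a mouse with 3 or 4 members thus rest on very few cells.

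**Figure D1:**
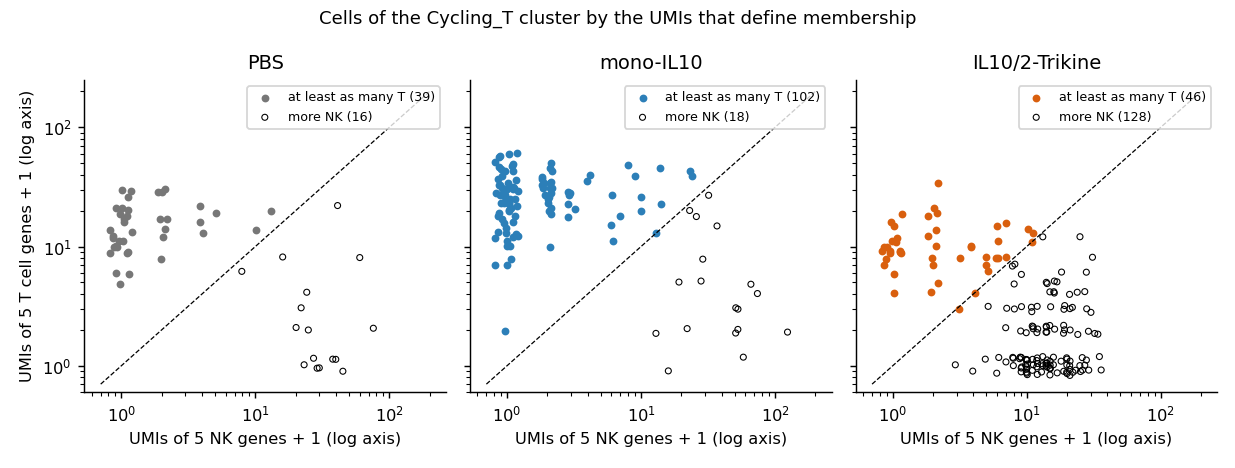
Each point is 1 cell of the Cycling_T cluster in the named library, with UMIs of the 5 NK genes plus 1 on the horizontal axis and UMIs of the 5 T cell genes plus 1 on the vertical axis, both log axes. Cells on or above the dashed line are the 39, 102 and 46 members, and the IL10/2-Trikine panel holds most of the cells below it.

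Most members were far from the threshold. The median PBS member held 13 T cell UMIs, the median mono-IL10 member 26 and the median IL10/2-Trikine member 8.5, beside 0, 0 and 1 NK UMIs. Cells just inside the threshold, with 0 to 3 more T than NK UMIs, numbered 0, 2 and 13, and cells just outside it, with 1 to 3 fewer, numbered 1, 1 and 8. The doubtful cells were therefore mostly in the IL10/2-Trikine library. No NK UMI at all was found in 25 PBS members (64.1%), 60 mono-IL10 members (58.8%) and 18 IL10/2-Trikine members (39.1%), while 3 or more NK UMIs were found in 6, 15 and 15. Members with 3 or more NK UMIs had median totals of 5173 (PBS), 7586 (mono-IL10) and 3359 (IL10/2-Trikine) UMIs, above the medians of 3703, 5993 and 2490 of the other members. Cells that the authors called doublets of several mice were absent from the annotation, and doublets within a mouse were not looked for.

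Whole-library depth was 364814102 to 515236552 gene UMIs over 30528 to 55504 barcodes. Between 408 and 700 barcodes were shared by a pair of libraries, and 0 of them were annotated cells in both libraries of the pair. Shared barcodes annotated in a single library were not counted. Of markers for other cells, the 9 macrophage genes summed to 360, 431 and 459 CPM (UMIs scaled to the total) in the members of PBS, mono-IL10 and IL10/2-Trikine, all 9 with a UMI. The defining genes of mast cells (Cpa3, Mcpt4, Fcer1a) and erythroid cells (Hba-a1, Hbb-bs) were at 0, and so were Cd79a and Ms4a1 of B cells and Flt3, Xcr1, Clec9a and Cd209a of dendritic cells. Of the other B cell genes Cd79b and Igkc summed to 12.2, 18.9 and 13.3 CPM, and of the dendritic genes Itgax was at 42.7, 37.8 and 20 CPM. Tumor epithelial genes (4 of 5 with a UMI) summed to 24.4, 13.1 and 46.6 CPM, fibroblast genes (4 of 4) to 24.4, 2.90 and 26.6, and neutrophil genes (2 of 4) to 0, 11.6 and 26.6. The part of RNA from these cells in the results below was not tested.

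Markers of T cells and of division were read in the members as a check of the label, with no test. Cd3e had a UMI in 92.3% of PBS, 92.2% of mono-IL10 and 73.9% of IL10/2-Trikine members, and in 0.588%, 0.791% and 1.61% of the cells of the NK cluster of the same libraries. Trac had one in 89.7%, 92.2% and 82.6% of members, against 7.65%, 9.09% and 2.15% of NK cluster cells, and these shares were fixed in part by the rule. Trbc1, a β chain constant gene outside the rule, went the other way, with a UMI in 28.2%, 50% and 43.5% of members and in 61.8%, 67.2% and 57.3% of NK cluster cells. Median depth was 3871, 6121.5 and 2880 UMIs in the members and 3086, 4846 and 2531.5 in the NK cluster. Mki67, a nuclear protein of dividing cells, had a UMI in 66.7%, 74.5% and 60.9% of members and in 3.53%, 4.74% and 5.11% of NK cluster cells, a difference that the choice of a cycling cluster fixes. After every cell was thinned to 2000 UMIs, which left 37, 102 and 40 members, the Mki67 shares were 62.2%, 52.0% and 57.5%. Of genes of other lymphocytes, Foxp3 of regulatory T cells had a UMI in 1, 2 and 0 members and Trdc of gamma-delta T cells in 0, 0 and 3. Trdc also had a UMI in 11.2%, 8.70% and 5.91% of NK cluster cells, so it does not set gamma-delta T cells apart from NK cells here.

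The variable genes of the T cell receptor were used neither by the rule nor by the authors' clustering. They lie on the same transcripts as the constant genes, of which Trac and Trbc2 were in the rule. Their difference between the members and the rest of the cluster is thus fixed in part by the rule. A β chain variable gene (Trbv) had a UMI in 95 of 187 members (50.8%), in 6 of 162 NK-transcript Cycling_T cells (3.7%), in 5 of 795 NK cluster cells (0.629%) and in 84 of 200 naive_CD8T cells (42.0%). An α chain variable gene (Trav) had one in 60 members and in 0 of the 162, which allows up to 1.85% of cells with a UMI and does not limit the share that express one. By library, a Trbv UMI was found in 33.3% of PBS, 66.7% of mono-IL10 and 30.4% of IL10/2-Trikine members.

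The variable genes read in the members came mostly from mono-IL10 cells. Of the members with a Trbv UMI, 68 were mono-IL10, 13 PBS and 14 IL10/2-Trikine cells. Among the 95 members with a Trbv UMI, 20 different Trbv genes were seen, and the most frequent were Trbv19 in 23 cells (24.2%, 95% exact interval 16 to 34.1%) and Trbv29 in 18 (18.9%, 11.6 to 28.3%). Trbv19 was seen in 26.5% of the 68 mono-IL10 members with a Trbv UMI, beside 27.0% of 74 naive_CD8T cells and 5.45% of 55 act_CD4T cells of the same library. In mono-IL10 mouse 1, which had most members, 13 different Trbv genes were found in 21 cells, and the most frequent was Trbv19 in 6. Both a Trav and a Trbv gene were read in 35 members, of which 26 had a mouse, and no combination was seen more than once in a mouse. With so few paired cells per mouse, a repeat could easily be missed. These intervals cover counting error only, and a gene without a UMI was not thereby absent from the cell.

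Against the NK-transcript cells of the same cluster the members were marked by T lineage genes, as a description since clustering and rule used these cells. CPM here are the mean of the 3 libraries. Themis, a signaling protein of the T lineage, reached 443.7 CPM in members and 2.70 in NK-transcript cells, where it had 1 UMI. Bcl11b, a transcription factor that keeps T cell identity, stood at 135 and 2.73 CPM, Cd5, which dampens receptor signaling, at 105.7 CPM and 0 UMIs, and Gzmk, a granzyme, at 149 and 2.22 CPM. The coreceptor genes differed as well, with Cd8b1 at 459.9 and 10.8 CPM and Cd8a at 379.9 and 15.5 CPM. The adaptor Lat reached 254.5 CPM in members and 26.7 in NK-transcript cells. Of the receptor complex genes of the rule, Trac (654 and 52.3 CPM), Cd3e and Cd3d stood among the 20 largest ratios.

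Against T cells that were neither naive nor cycling, the leading genes of the members were those of mitosis and histones. Ccna2, a cyclin of S and G2 phase, stood at 164 CPM in members and 0.56 in the other T cells, Cdk1, the mitotic kinase, at 112 and 1.83, Ccnb1, its cyclin, at 78.0 and 1.28, Aurkb, a chromosome kinase, at 50.4 and 0.360, and the linker histone gene H1f5 at 420.3 and 5.52. The 30 genes of DNA replication summed to 4532 CPM in members, 4211 in NK-transcript Cycling_T cells, 4306 in Cycling_NK, 4262 in Cycling_Treg and 1062 in other T cells. The 30 genes of mitosis and the spindle summed to 5245, 5023, 1600, 5379 and 392 CPM in the same classes. Replication genes were thus at a like level in every cycling class, while mitotic genes were lower in Cycling_NK than in the members. At 2000 UMIs per cell, both lists had a UMI in 87.2% of 179 members. So did 96.7% of 152 NK-transcript Cycling_T, 82.8% of 64 Cycling_NK, 93.5% of 31 Cycling_Treg and 37.7% of 461 other T cells.

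**Figure D2:**
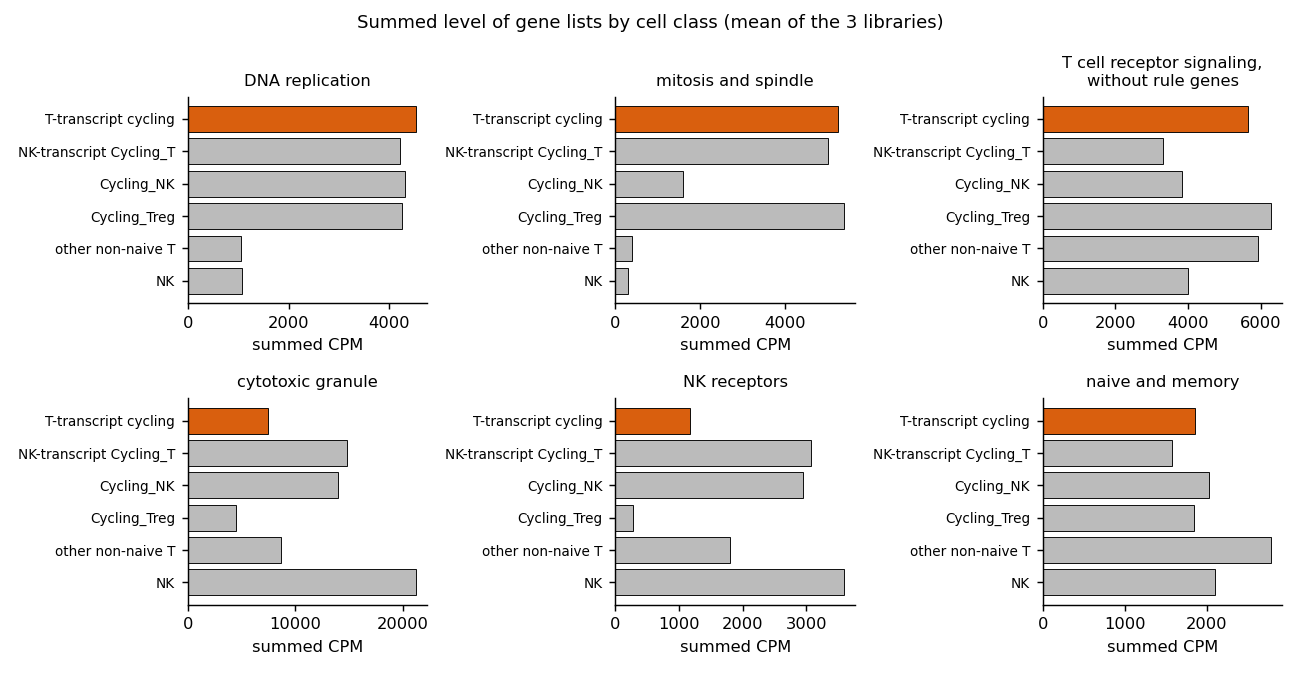
Bars give the summed CPM of each gene list in 6 cell classes, as the mean of the 3 libraries, with the members in orange and the genes of the membership rule left out of receptor signaling. The members matched NK-transcript Cycling_T cells in replication (4532 and 4211 CPM) and mitosis (5245 and 5023 CPM) and differed in cytotoxic genes (7412 and 14826 CPM) and in the other receptor signaling genes (5638 and 3301 CPM).

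The members held less RNA of the summed cytotoxic granule list than NK-transcript cells, though single granule genes lay on both sides. The 21 genes of the list summed to 7412 CPM in members, 14826 in NK-transcript Cycling_T cells, 13992 in Cycling_NK and 8700 in other T cells. Gzmb was higher in members of PBS, mono-IL10 and IL10/2-Trikine, at 1043, 1806 and 1963 CPM against 696, 1529 and 1746 in NK-transcript cells. Nkg7 was too, at 1525, 2428 and 1371 against 1068, 1302 and 1320 CPM. Prf1 was lower in every library, at 24.4, 81.3 and 86.5 against 146, 323 and 475 CPM. Gzma was lower except in mono-IL10. The list of 23 T cell receptor signaling genes holds the 5 T cell genes of the rule, which fix a part of its level, and the other 18 summed to 5638 CPM in members, 3301 and 3842 in NK-transcript Cycling_T cells and Cycling_NK, and 5930 in other T cells. The members thus lay near other T cells on these 18. The 18 NK receptor genes summed to 1179, 3078, 2943 and 1795 CPM in the order of classes above. No test was made between classes, since the clusters and the rule used these cells.

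Across the mice of a treatment the cell cycle lists overlapped. Replication genes summed to 4822, 2363, 3778, 3948 and 9516 CPM in PBS mice 1 to 5, to 4338, 4494, 4699, 5072 and 4786 in mono-IL10 mice, and to 3328, 4059, 4773, 5820 and 6299 in IL10/2-Trikine mice. Mitosis genes summed to 4388, 8634, 7756, 6910 and 4585 CPM in PBS, 4594, 5783, 3494, 4103 and 6775 in mono-IL10, and 6379, 4383, 5269, 9861 and 3018 in IL10/2-Trikine. The highest replication value was PBS mouse 5 and the highest mitosis value IL10/2-Trikine mouse 4, both with 3 members, and no group stood apart. No test was made on these sums.

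The next question was whether treatment changed how many dividing T cells there were relative to other lymphocytes. Members made up 8.33, 12.5, 8.45, 8.04 and 7.32% of the annotated T and NK cells of PBS mice 1 to 5, or 8.93% ± 2.05 (SD, n = 5). In mono-IL10 mice they made up 18.2, 13.9, 8.57, 10.7 and 11.7%, or 12.6% ± 3.66, and in IL10/2-Trikine mice 5.97, 10.4, 8.70, 6.25 and 9.52%, or 8.18% ± 1.99. The 3 groups overlapped, and mono-IL10 mouse 1 was the highest. IL10/2-Trikine minus PBS was -0.750 percentage points (p = 0.611, exact two-sided permutation test over mice, adjusted p = 0.611) and IL10/2-Trikine minus mono-IL10 was -4.44 points (exact p = 0.0397, adjusted p = 0.119). Mono-IL10 was 3.69 points above PBS (exact p = 0.0873, adjusted p = 0.131). No comparison passed after Benjamini-Hochberg adjustment over the 3, and 0.00794 was the smallest p the design allowed.

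The sign of the IL10/2-Trikine differences depended on the denominator and on which Cycling_T cells were counted. A second denominator, called T cells here, held all annotated cells outside the NK and Cycling_NK clusters. NK-transcript Cycling_T cells stayed in it, at 2, 4, 2, 2 and 2 in PBS mice 1 to 5. Mono-IL10 mice held 3, 2, 1, 5 and 3 of them, and IL10/2-Trikine mice 13, 21, 8, 7 and 10. Shares without them were not computed. Of this denominator the members' mean share was 12.8% ± 4.08 for PBS, 18.2% ± 5.56 for mono-IL10 and 19.0% ± 5.69 for IL10/2-Trikine mice. IL10/2-Trikine was 6.25 points above PBS (exact permutation, adjusted p = 0.179) and 0.819 points above mono-IL10 (adjusted p = 0.841). With the whole Cycling_T cluster counted, among cells with a mouse, it was 10.8 points above PBS and 8.52 points above mono-IL10 (exact permutation, adjusted p = 0.0238 for both). Under strict membership, with at least 3 T cell UMIs and more than 2 times the NK UMIs, the difference was -2.70 points against PBS (exact permutation, adjusted p = 0.0476) and -6.14 against mono-IL10 (adjusted p = 0.0238). Only shares were measured, and cell numbers per tumor are not in these data.

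**Figure D3:**
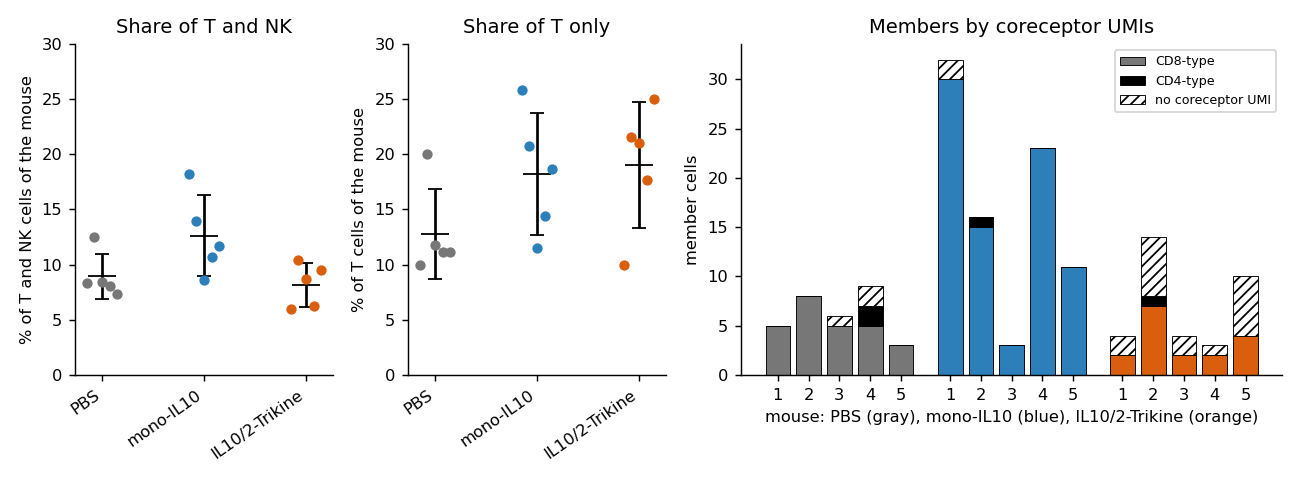
The left and middle panels give members as a percentage of T and NK cells and of T cells per mouse (points). Bars are mean and SD of 5 mice. T cells here are all cells outside the NK and Cycling_NK clusters, NK-transcript Cycling_T cells included. The right panel stacks the members of each mouse by coreceptor type. Means were 8.93, 12.6 and 8.18% of T and NK cells but 12.8, 18.2 and 19.0% of T cells, and cells with no coreceptor UMI were frequent in IL10/2-Trikine mice.

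Most members with a coreceptor UMI were of the CD8 type, and the IL10/2-Trikine library held many members with no coreceptor UMI. A cell was called CD8-type when its Cd8a plus Cd8b1 UMIs exceeded its Cd4 UMIs and CD4-type when Cd4 had more. In PBS, 30 of 39 members were CD8-type (76.9%), 3 were CD4-type and 6 had neither. In mono-IL10, 97 of 102 were CD8-type (95.1%), 1 was CD4-type and 4 had neither, and in IL10/2-Trikine 22 of 46 were CD8-type (47.8%, 95% exact interval 32.9 to 63.1%), 1 was CD4-type and 23 had neither (50%). After thinning to 2000 UMIs, CD8-type cells were, in the same order of groups, 64.9% of 37, 85.3% of 102 and 42.5% of 40 members.

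Per mouse, CD8-type cells were 100, 100, 83.3, 55.6 and 100% of the members in PBS, 93.8, 93.8, 100, 100 and 100% in mono-IL10, and 50, 50, 50, 66.7 and 40% in IL10/2-Trikine. Every IL10/2-Trikine mouse was below every mono-IL10 mouse, and PBS mouse 4 fell within the IL10/2-Trikine range. The planned test took mice with at least 3 coreceptor-bearing members, which left only IL10/2-Trikine mice 2 and 5. Their mean minus that of PBS was -42.8 points and minus that of mono-IL10 -52.5 points (exact two-sided permutation p = 0.0476 for both, the smallest that 2 against 5 mice can give, adjusted p = 0.0714). Mono-IL10 was 9.72 points above PBS (exact p = 0.444). When all 5 mice entered, IL10/2-Trikine was 51.3% ± 9.60, a difference of -36.4 points against PBS (87.8% ± 19.4, exact permutation adjusted p = 0.0238) and -46.2 against mono-IL10 (97.5% ± 3.42, adjusted p = 0.0238). In mice with at least 3 such members the difference from PBS was smaller under strict membership (-21.9, exact permutation adjusted p = 0.357), with at least 2 coreceptor UMIs per cell (-26.3, adjusted p = 0.238) and after thinning (-27.1, adjusted p = 0.133).

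The IL10/2-Trikine members without a coreceptor UMI were compared with the CD8-type members, a split made after its values were seen and given as a description. The counts of Trac, Trbc2, Cd3e, Fcer1g and NK UMIs below are of genes that the membership rule used, so they describe whom the rule let in. Trbv UMIs depend on the rule in part, as said above. Of these 23 cells, 17 had a Trac UMI, 21 a Trbc2 UMI, 14 a Cd3e UMI and 5 a Trbv UMI, beside a Trbv UMI in 8 of 22 CD8-type members and 2 of 128 NK-transcript cells of the library. Depth was like that of the CD8-type members, at a median of 2805 against 2969 UMIs. An NK UMI of the rule was found in 18 of the 23 and in 10 of the 22. Of genes outside the rule that NK cells also use, Klrd1 stood at 588 against 539 CPM, Klrk1, the receptor NKG2D, at 103 against 163, and Cd160 at 118 against 37.6, so they did not all lie on one side.

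Their levels differed from the CD8-type members over both lineages. Ikzf2, the transcription factor Helios, stood at 1441 CPM against 213, Xcl1, a chemokine of NK and T cells that attracts dendritic cells, at 1633 against 150, Fcer1g at 647 against 62.7 and Il2rb at 868 against 476. Gzmb, granzyme B, was lower at 691 against 3109 CPM, Pdcd1, the receptor PD-1, at 58.8 against 251, and Lat was at 0 UMIs against 176 CPM. The transcription factor gene Tcf7 stood at 265 against 75.2 CPM. Trdc UMIs were found in 3 of the 23 cells and in 0 of the 22. T cells and NK cells with T cell transcripts cannot be told apart among these cells.

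Members also differed in the RNA recovered per cell. The mean log2 UMIs per member were 11.67, 11.99, 12.01, 12.02 and 11.87 in PBS mice 1 to 5, 12.83, 12.63, 12.87, 12.33 and 12.61 in mono-IL10 mice, and 11.28, 11.78, 11.85, 10.99 and 11.47 in IL10/2-Trikine mice. Every mono-IL10 mouse was above every mouse of the other groups, and IL10/2-Trikine overlapped PBS. Mono-IL10 was 0.74 above PBS on this log2 scale, or 1.67-fold (exact two-sided permutation test, adjusted p = 0.0119), and IL10/2-Trikine differed by -1.18 from mono-IL10 (adjusted p = 0.0119) and by -0.44 from PBS (adjusted p = 0.0317). On median UMIs in place of mean log2 values, the last difference did not pass (exact permutation, adjusted p = 0.0635), and it was also lost without PBS mouse 2, 3 or 4 (adjusted p = 0.0635, exact permutation) or IL10/2-Trikine mouse 4 (adjusted p = 0.0556). The order of groups was the same over all barcodes, at medians of 6497.5 (PBS), 8078 (mono-IL10) and 5198 (IL10/2-Trikine) UMIs. It was also the same in the NK cluster, at 3086, 4846 and 2531.5 UMIs, so the difference is not particular to the members. Sequencing depth of a library and RNA per cell cannot be told apart in it.

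For gene levels, member UMIs were summed per mouse and compared by edgeR's quasi-likelihood test with Benjamini-Hochberg adjustment, all 15 mice in 1 fit. Summed UMIs ranged from 6186 to 257737 per mouse, and 540 genes with enough counts were tested, which held 57.1% of all member UMIs. Values per mouse are CPM of its member UMIs, fold changes are log2 ± SE, and n is 5 mice per group. A gene was called at an adjusted p under 0.05.

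Between IL10/2-Trikine and PBS, 14 of 540 genes were called (2.59% of those tested), 8 higher (1.48%) and 6 lower (1.11%). The higher ones were 6 ribosomal protein genes, the translation elongation factor gene Eef1a1 and the actin gene Actb. The lower ones were the adaptor genes Lat and Grap2, Plac8, B2m, H3f3b and the nuclear noncoding RNA Malat1. At an unadjusted p under 0.05 there were 93 genes, and DESeq2 called 15, of which 13 were shared. Under strict membership 9 genes were called, and in CD8-type members 15 of 676, with 2 IL10/2-Trikine mice left. In members without an NK UMI, a choice made after seeing the data, edgeR called 0. There 33 of 348 had an unadjusted p under 0.05, with 2 IL10/2-Trikine and 4 mono-IL10 mice left.

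Both adaptors that fell act close to the T cell receptor. Lat, the scaffold on which the signal is built, was at 433, 292, 398, 222 and 346 CPM in PBS mice, 338, 304, 281, 339 and 398 in mono-IL10 mice, and 0, 76.2, 0, 323 and 131 in IL10/2-Trikine mice. IL10/2-Trikine mouse 4 lay within the PBS range and the other 4 below it. The change from PBS was -1.91 ± 0.49 (adjusted p = 0.0264), and that from mono-IL10 -1.89 ± 0.44 (adjusted p = 0.0118). With a mouse left out, Lat had enough counts to be tested in 8 of 15 fits, and was called in 5 of them against PBS, where it was lost without PBS mouse 1 or 3 or IL10/2-Trikine mouse 3 (adjusted p from 0.0790 to 0.0949), and in 8 of them against mono-IL10. Grap2, which encodes the adaptor Gads that joins Lat to Slp76, was at 433, 758, 835, 444 and 952 CPM in PBS, 334, 224, 723, 590 and 206 in mono-IL10, and 185, 152, 186, 0 and 230 in IL10/2-Trikine. The IL10/2-Trikine mice were all below the PBS mice (-1.96 ± 0.46, adjusted p = 0.0106), while against mono-IL10 the value was -1.11 ± 0.44 (adjusted p = 0.151).

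In the fixed list of receptor signaling genes, Lat alone passed. Of the 18 genes of the list outside the membership rule 7 were tested, and Lat was the one called in either IL10/2-Trikine comparison, with 0 called between mono-IL10 and PBS, where 2.59%, 4.81% and 1.85% of all genes tested were called. With 7 genes these counts are not a result about the list. The median log2 change of the 7 was -0.99 against PBS and -0.37 against mono-IL10, beside -0.03 and 0.03 over all 540 genes. Lck, the kinase, stood at -0.22 ± 0.36 against PBS (adjusted p = 0.792). Of 4 NK genes outside the rule, Klra8 and Klra4 were at 0. Eomes and Gzma, a granzyme that CD8 T cells also make, summed per group to 415 (PBS), 1008 (mono-IL10) and 1504 (IL10/2-Trikine) CPM. Their sums per mouse overlapped widely. The 18 NK receptor genes, none of them in the rule, summed to 542, 963, 1074, 814 and 1038 CPM in PBS mice. Mono-IL10 mice gave 1253, 1128, 161, 751 and 1070 CPM and IL10/2-Trikine mice 1479, 1963, 1612, 485 and 1476. All IL10/2-Trikine mice but mouse 4 lay above every mouse of the other groups. No test was made on these sums, and the part of NK transcripts in the lower Lat was not tested. In CD8-type members alone Lat stood at -1.02 against PBS (adjusted p = 0.314) and -0.92 against mono-IL10 (adjusted p = 0.357), with 2 IL10/2-Trikine mice left, and in members without an NK UMI, an alternative chosen after seeing the data, it had too few counts to be tested.

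Plac8 and Malat1 fell against both other groups. Plac8, which encodes a small cysteine-rich protein of leukocytes, was at 975, 758, 1233, 814 and 1557 CPM in PBS, 916, 1012, 522, 1010 and 987 in mono-IL10, and 185, 362, 682, 323 and 394 in IL10/2-Trikine. No IL10/2-Trikine mouse reached a PBS mouse (-1.36 ± 0.29, adjusted p = 0.00444), and 1 mono-IL10 mouse lay within the IL10/2-Trikine range (-1.16 ± 0.27, adjusted p = 0.0109). Malat1 was at 3251, 2975, 3222, 2690 and 2855 CPM in PBS, 2413, 2032, 2209, 3231 and 1810 in mono-IL10, and 1387, 1448, 1116, 1455 and 1640 in IL10/2-Trikine. The IL10/2-Trikine mice were below all others (-1.09 ± 0.18, adjusted p = 0.00059 against PBS, and -0.69 ± 0.17, adjusted p = 0.0187 against mono-IL10). The other T cells of the fits were all non-naive T clusters outside Cycling_T, with the dividing Cycling_Treg cells included. In these cells Malat1 also fell against PBS, by 0.61 on the log2 scale (edgeR, adjusted p = 0.0026). Plac8 stood at -0.30 there (adjusted p = 0.754).

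Ribosomal protein genes rose in part. Of 79 tested, a list added after seeing the results, 6 rose against PBS, 6 rose against mono-IL10 and 0 passed between mono-IL10 and PBS, beside 1.48%, 2.59% and 0.37% of all genes called higher. The median log2 change was 0.12 and 0.10 in the IL10/2-Trikine comparisons, beside -0.03 and 0.03 over all genes. Rpl38 was at 1734, 1954, 2028, 2344 and 1644 CPM in PBS, 2293, 2605, 2610, 2568 and 2304 in mono-IL10, and 3143, 3316, 3595, 2748 and 3150 in IL10/2-Trikine. Every IL10/2-Trikine mouse was above every other mouse, with 0.67 ± 0.14 against PBS (adjusted p = 0.00444) and 0.43 ± 0.13 against mono-IL10 (adjusted p = 0.0447). The call against mono-IL10 was kept in 0 of 15 fits that each left out a mouse (adjusted p from 0.0512 to 0.214), and that against PBS in all 15. The share of all ribosomal protein UMIs overlapped, at 18.5 to 23.8% in PBS, 21.1 to 23.0% in mono-IL10 and 19.8 to 26.2% in IL10/2-Trikine mice. In T cells that were not members Rpl38 rose as well, by 0.63 (adjusted p = 0.00116).

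Between IL10/2-Trikine and mono-IL10, 26 genes were called (4.81% of those tested), 14 higher (2.59%) and 12 lower (2.22%). The lower genes held both CD8 coreceptor genes, the chemokine gene Ccl5, the actin-binding Tmsb4x and Pfn1, Lat, Plac8, Malat1, the surface protein genes Cd52 and Fxyd5, Sh3bgrl3 and AW112010. The higher genes held Nfkb1, Nr4a2 and Cd44, the histone-binding Rbbp4, the nucleolin gene Ncl, the chaperone gene Hspa8, Eef1g, mt-Nd1 and 6 ribosomal protein genes. An unadjusted p under 0.05 was reached by 106 genes, and DESeq2 called 30, which included all 26. EdgeR called 0 under strict membership, where 70 of 441 genes had an unadjusted p under 0.05, and 4 without IL10/2-Trikine mouse 2.

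The coreceptor genes, whose UMIs also set the cell types above and so are no separate evidence, were lower in IL10/2-Trikine than in mono-IL10. Cd8a was at 656, 689, 482, 573 and 754 CPM in mono-IL10 mice and 370, 229, 124, 162 and 131 in IL10/2-Trikine mice, with 488, 642, 119, 222 and 86.5 in PBS. The IL10/2-Trikine and mono-IL10 mice did not overlap (-1.65 ± 0.37, 3.14-fold, adjusted p = 0.0109), and the PBS mice spanned both. Cd8b1 was at 601, 689, 522, 678 and 850 CPM in mono-IL10 and 370, 248, 124, 647 and 197 in IL10/2-Trikine, where mouse 4 lay within the mono-IL10 range (-1.36 ± 0.31, adjusted p = 0.0109). Against PBS, Cd8a stood at -0.79 ± 0.45 (adjusted p = 0.363) and Cd8b1 at -1.09 ± 0.35 (adjusted p = 0.085). Restricted to CD8-type members, 0 of 676 genes were called by edgeR between IL10/2-Trikine and mono-IL10 and 104 had an unadjusted p under 0.05, with 2 IL10/2-Trikine mice left, so that makeup and level per cell cannot be told apart.

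Ccl5, a chemokine of effector T cells, was at 5087, 4566, 9719, 8036 and 4868 CPM in mono-IL10, 1387, 743, 186, 2425 and 3445 in IL10/2-Trikine and 3901, 3063, 1153, 2566 and 2768 in PBS. All IL10/2-Trikine mice were below all mono-IL10 mice (-1.97 ± 0.50, 3.91-fold, adjusted p = 0.0447), but the call was kept in only 1 of 15 fits that each left out a mouse, with adjusted p from 0.0222 to 0.131. It was the one of 3 tested genes of the 16 effector cytokines and chemokines to be called, where 4.81% of all genes tested were called. With 3 genes this count is not a result about the list. The other T cells showed a like value of -1.98 (adjusted p = 0.0622) that did not pass.

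Nr4a2, an orphan nuclear receptor induced by receptor stimulation, was at 217, 350, 477, 247 and 865 CPM in PBS, 171, 80.6, 80.3, 162 and 206 in mono-IL10, and 277, 381, 372, 323 and 656 in IL10/2-Trikine. The mono-IL10 mice lay below every mouse of both other groups. Nr4a2 was 1.58 ± 0.36 higher in IL10/2-Trikine than in mono-IL10 (adjusted p = 0.0109) and -1.43 ± 0.36 in mono-IL10 against PBS (adjusted p = 0.0351), while IL10/2-Trikine against PBS gave 0.14 ± 0.38 (adjusted p = 0.865). Cd44, the hyaluronan receptor of activated T cells, was also lowest on average in mono-IL10, at 379, 175, 517, 271 and 173 CPM in PBS, 144, 134, 120, 96.9 and 123 in mono-IL10 and 92.5, 400.2, 434, 323 and 361 in IL10/2-Trikine. Mouse 1 of IL10/2-Trikine was below the mono-IL10 range and the other 4 above it (1.51 ± 0.37, adjusted p = 0.0164), while mono-IL10 against PBS gave -1.32 ± 0.37 (adjusted p = 0.0504).

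Nfkb1, which encodes the p105 precursor of the NF-κB subunit p50, was at 260, 242, 241, 129 and 192 CPM in mono-IL10, 1387, 648, 682, 162 and 525 in IL10/2-Trikine, and 433, 146, 199, 494 and 433 in PBS. IL10/2-Trikine mouse 4, with 3 members, lay within the mono-IL10 range and the other 4 above it (1.71 ± 0.33, 3.27-fold, adjusted p = 0.00394). Against PBS the value was 1.01 ± 0.38 (adjusted p = 0.149). In the T cells that were not members the 3 genes stood between 0.07 and 0.14 against mono-IL10. The edgeR adjusted p was 0.833 for Nr4a2, 0.908 for Nfkb1 and 0.907 for Cd44. Whether the change against mono-IL10 differed between members and these cells was not tested.

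**Figure D4:**
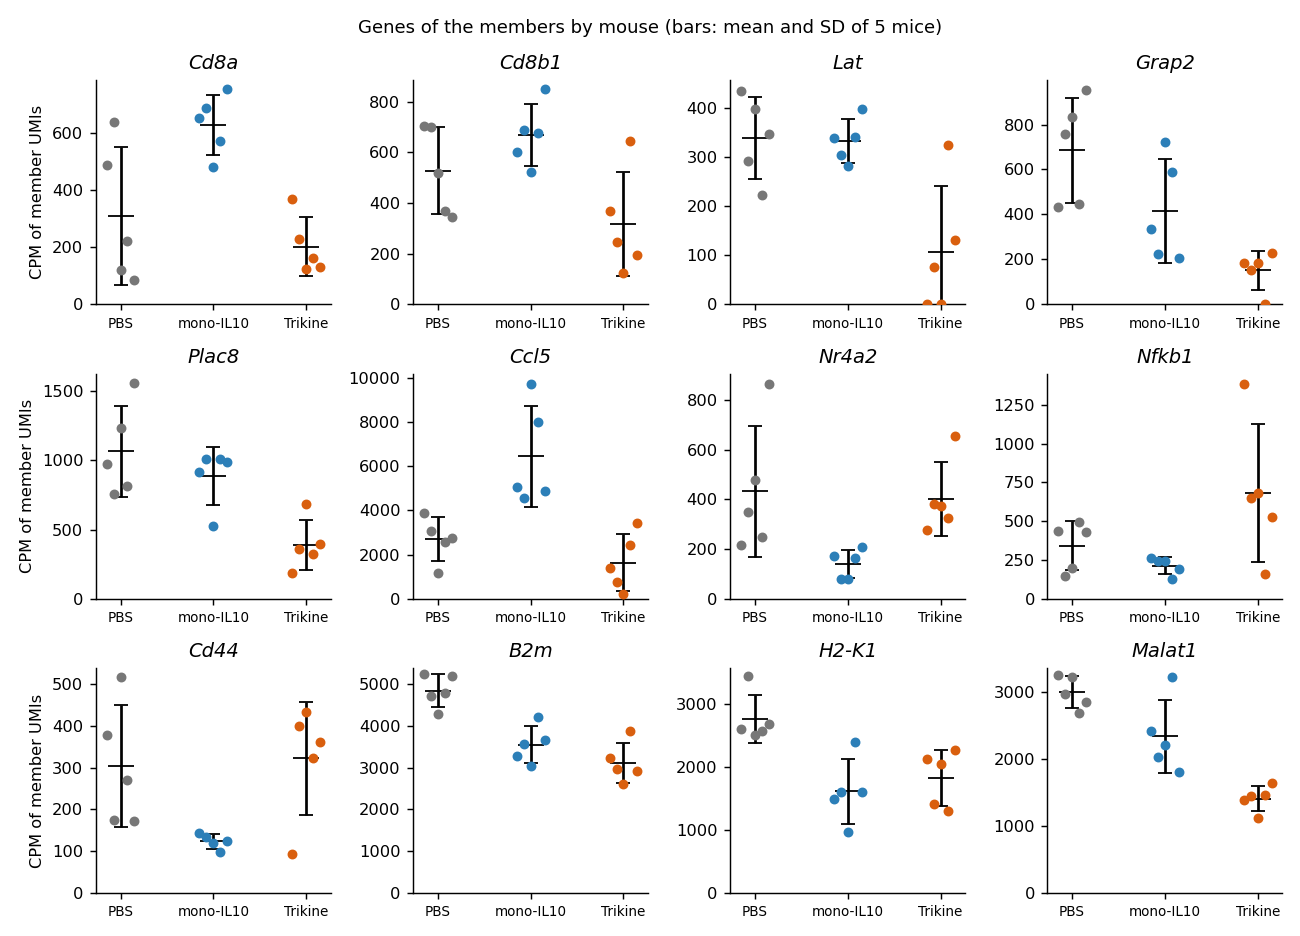
Points are the CPM of member UMIs in each mouse for 12 genes, with bars for mean and SD of 5 mice per group. Cd8a and Ccl5 were lower in IL10/2-Trikine than in mono-IL10 without overlap, Nr4a2 was lowest in mono-IL10, and B2m was highest in PBS.

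Between mono-IL10 and PBS, 10 genes were called (1.85% of those tested), 2 higher (0.37%) and 8 lower (1.48%). Actb and Pfn1, which encode actin and the actin-binding profilin, rose. The antigen presentation genes B2m, H2-K1 and H2-Q6 fell, together with Nr4a2, the chaperone genes Hspa5 and Dnaja1, the polyamine enzyme gene Odc1 and the adaptor gene Skap1. At an unadjusted p under 0.05 there were 65 genes, and DESeq2 called 10, of which 8 were shared. EdgeR called 0 genes without mono-IL10 mouse 1, 2 or 3, where an unadjusted p under 0.05 was reached by 61, 57 and 64 genes.

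B2m, the light chain of class I molecules, was at 5255, 4725, 4295, 4787 and 5191 CPM in PBS, 3275, 3572, 3052, 4224 and 3662 in mono-IL10, and 3236, 2973, 2603, 3880 and 2920 in IL10/2-Trikine. Every PBS mouse was above every treated mouse. The change was -0.50 ± 0.12 for mono-IL10 (adjusted p = 0.0223) and -0.70 ± 0.13 for IL10/2-Trikine (adjusted p = 0.00213). H2-K1, a class I heavy chain gene, was at 2601, 3442, 2506, 2566 and 2682 CPM in PBS, 1490, 1594, 964, 2399 and 1605 in mono-IL10 and 2126, 1410.2, 2046, 1293 and 2264 in IL10/2-Trikine. It fell in mono-IL10 (-0.81 ± 0.18, adjusted p = 0.0223), and in IL10/2-Trikine the value was -0.63 ± 0.21 (adjusted p = 0.0909). H2-Q6, a class I-like gene whose reads may be shared with its close copies, was at 438 to 1038 CPM in PBS and 80.3 to 323 in mono-IL10 (-1.42 ± 0.29, adjusted p = 0.0167).

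Of the other lists few genes were deep enough to test, and with 1.85 to 4.81% of all genes called per comparison, 0 called of 1 to 6 tested is near the background and no result about a list. Among the 30 mitosis genes 6 were tested and 0 called in any comparison, with Mki67 at -0.68 ± 0.32 against PBS (adjusted p = 0.263) and Top2a, which untangles DNA, at -0.07 ± 0.37 (adjusted p = 0.939) for IL10/2-Trikine. Among 21 cytotoxic granule genes 5 were tested and 0 called. Gzmb was at 1517, 1079, 954, 1407 and 260 CPM in PBS, 2126, 1343, 4859, 1074 and 2057 in mono-IL10 and 555, 2801, 124, 1617 and 1115 in IL10/2-Trikine, and all groups overlapped. Nkg7, a granule protein of killer cells, stood at -0.79 ± 0.24 in IL10/2-Trikine against mono-IL10 (adjusted p = 0.0598).

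Of the 28 genes of IL-2 and IL-10 receptors and JAK-STAT signaling 3 were tested, and 0 were called. Il2rb, the receptor chain that IL10/2-Trikine engages, was at 217, 700.0, 557, 444 and 173 CPM in PBS, 497, 349, 361, 380 and 343 in mono-IL10, and 462, 686, 992, 647 and 558 in IL10/2-Trikine. The value was 0.80 ± 0.27 against mono-IL10 (adjusted p = 0.0995) and 0.51 ± 0.31 against PBS (adjusted p = 0.4). Of 10 STAT5 target genes, a list the study took from the literature that holds 1 gene of the membership rule, 6 were tested and 0 called, at a median log2 change of 0.66 against PBS and -0.16 against mono-IL10, and of 0.68 for mono-IL10 against PBS, beside -0.03, 0.03 and -0.02 over all genes. Glycolysis had 4 of 16 genes tested and 0 called, at a median of 0.67 against PBS, 0.42 against mono-IL10 and 0.29 for mono-IL10 against PBS, with Ldha at 0.86 ± 0.28 (adjusted p = 0.0918). Klrd1, the CD94 chain of NK receptors and the one tested gene of 18 in that list, was at 54.2, 292, 199, 222 and 346 CPM in PBS and 647, 705, 620, 162 and 394 in IL10/2-Trikine, and its value of 1.29 ± 0.42 did not pass (adjusted p = 0.0898). The groups overlapped through IL10/2-Trikine mouse 4. Ikzf2, listed with regulatory T cells, stood at 1.80 against PBS (adjusted p = 0.148), and Pcna, the DNA clamp of replication, at 0.25 (adjusted p = 0.806).

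The remaining lists held 2 to 5 tested genes each, and the genes called among them were Nr4a2, Cd44, Ccl5 and H3f3b, described above or named among the called genes. For naive and memory genes 2 of 18 were tested and 0 called, for type I interferon genes 2 of 22 and 0, and for regulatory T cell genes 4 of 17 and 0. A list of 10 mitochondrially encoded genes, all tested and added after seeing the results, held 1 called gene, mt-Nd1. It was 0.67 ± 0.20 higher in IL10/2-Trikine than in mono-IL10 (edgeR, adjusted p = 0.0486). Of all genes tested, 2.59% were called higher in that comparison, so this count is not a result about the list.

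Whether the IL10/2-Trikine effect against PBS differed between members and the other non-naive T cells of the same mice was tested directly, with the mouse as a block. Of 1757 genes 0 were called by edgeR (0% of those tested) and 0 by DESeq2, and 111 had an unadjusted p under 0.05. The smallest adjusted p was 0.104, for Rgs2, an inhibitor of G protein signaling, with a difference of 1.99 ± 0.46. Among the genes with the smallest p in each direction, Phlpp1, Canx, mt-Co1, Eef1a1 and Npm1 were the others with a positive difference, and Lpxn, S100a6, Nedd9, Dnajc19, Nkg7 and Tmsb4x had a negative one, with adjusted p up to 0.546. For the genes that were called in members alone, the differences were -1.69 ± 0.60 for Lat (adjusted p = 0.551), -1.80 ± 0.58 for Grap2 (adjusted p = 0.361) and -1.20 ± 0.40 for Plac8 (adjusted p = 0.42). None of these differences is shown to be particular to the members. The reference held the dividing Cycling_Treg cells, so the fit does not compare dividing with nondividing T cells.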

How the data were processed

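Members and gene lists were chosen with earlier results of these data known. The authors hashtagged 5 mice per group, pooled them into 1 library and ran Cell Ranger 9.0.1 on GRCm39. The deposited matrices hold raw UMI counts per gene and barcode, over 34187 gene features and 5 hashtag features. The authors' table gives clusters, mice, counts of UMIs and the mitochondrial percent per cell. They kept cells with at least 1000 genes and clustered them with Seurat 5.1.0 after hashtag doublets had been removed. Its 7858 rows of a group with no sample here were not used, but entered the same clustering. The labels state 5 mice for the treated groups only, and 5 hashtags were found in PBS.

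Counts were summed per mouse (at least 3 members) and tested with edgeR 4.0.16 in R 4.3.3 (TMM, robust quasi-likelihood, filterByExpr minimum count 10, all groups in 1 fit, adjusted p under 0.05). DESeq2 1.42.0, other normalizations and filters, other memberships, thinning and leaving out each mouse were alternatives. Shares were compared by exact two-sided permutation over mice, adjusted over 3 comparisons (scipy 1.17.1, Python 3.11.15). The scripts were tested on simulated data. Intervals are exact Clopper-Pearson at 95% and cover counting error only, and a count of 0 was given the limit of 3 counts. CPM per mouse are relative to all its member UMIs, so genes of high level affect the rest. The precision is set by the summed UMIs per mouse, 6186 to 257737.

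Genes were named by rule: up to 12 called genes per direction and comparison, called members of the lists, or else 2 to 4 members of a list by level, and the 20 genes with the largest ratio to a reference class at 50 CPM or more. The genes with values per mouse were picked from these after their values were seen, as were Lck, Ldha, and the genes of members without a coreceptor.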

Additional observations from a re-analysis of the deposited data

Results flagged for a closer look

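In groups of 5 mice, the highest or lowest mouse was compared with its nearest neighbor relative to the range of the group (Dixon's 95% value), over 120 groups of the shares and the named genes. This flagged 7 groups (5.83%), and chance flags about 1 in 20. The share of members among T and NK cells was 12.5% in PBS mouse 2, with the next at 8.45%. In IL10/2-Trikine mice AW112010 reached 2649 CPM in 1 mouse with the next at 1444, Nr4a2 reached 656 CPM with the next at 381, and Skap1 reached 970 CPM (969.9) with the next at 381. In mono-IL10 mice Skap1 reached 590 CPM (589.6) with the next at 369, and the lowest Plac8 value was 522 CPM with the next at 916. H2-K1 reached 3442 CPM in 1 PBS mouse with the next at 2682.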

How the results depend on the processing

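The counts of called genes changed with the members, depth and mice that entered. In order (IL10/2-Trikine against PBS, against mono-IL10, mono-IL10 against PBS) the counts were 14, 26 and 10, and became 9, 0 and 6 with strict membership, 51, 95 and 20 with the whole Cycling_T cluster, 3, 4 and 0 with mice thinned to the lowest total, 8, 15 and 2 with cells thinned to 2000 UMIs, and 0, 0 and 0 in members without an NK UMI (chosen after seeing the data). They were 0, 30 and 7 with no filter beyond 1 UMI and 18, 17 and 0 with 5 or more cells per mouse. With only the groups compared they were 13, 17 and 9, and in CD8-type members 15, 0 and 1. Strict membership left 34 IL10/2-Trikine members, of which only those with a mouse entered the fit, and all 5 mice stayed in it. Only 2 IL10/2-Trikine mice remained without an NK UMI, in CD8-type members and with 5 or more cells, and 3 with cells thinned. In these settings membership or depth and the loss of mice cannot be told apart. Where edgeR called 0 genes, an unadjusted p under 0.05 was reached by 70 of 441 with strict membership, 16 of 111 with mice thinned, 33, 18 and 35 of 348 without an NK UMI, 621 of 12342 with no filter, 132 of 1164 with 5 or more cells and 104 of 676 in CD8-type members. DESeq2 gave 15, 30 and 10. Leaving out a mouse gave 7 to 21, 4 to 26 and 0 to 14, the lowest being 4 without IL10/2-Trikine mouse 2 and 0 without mono-IL10 mouse 1, 2 or 3. Malat1, B2m and Plac8 were called against PBS, and Nfkb1 and Tmsb4x against mono-IL10, in all 15 of these fits. Others were called in fewer of the 15, such as Nr4a2 in 13 and Cd44 in 8 against mono-IL10, and B2m and H2-K1 in 8 each, Nr4a2 in 6 and Skap1 in 2 between mono-IL10 and PBS. Against mono-IL10, Rpl38 became -0.10 and Rpl37a -0.15 with no filter, and Rpl38 -0.029 and Sh3bgrl3 0.083 in members without an NK UMI. The cause was not tested.

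The comparison with other T cells gave 0 calls with the replicate block by mouse and 0 with no replicate block, 1 at a minimum count of 3 (Rgs2), 1 with 5 or more cells (S100a6) and 0 to 4 without a mouse. No other pairing applies, since each group holds different mice.

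Member shares of IL10/2-Trikine against PBS and mono-IL10 differed by -0.750 and -4.44 points in the main test. Among all cells outside the NK and Cycling_NK clusters the differences were 6.25 and 0.819. Strict membership gave -2.70 and -6.14, the whole cluster 10.8 and 8.52, and the rule applied after thinning -1.99 and -5.87. In cells with at least 2000 genes they were 12.2 and 3.71 (exact permutation, adjusted p = 0.944 for both). IL10/2-Trikine mice varied there by an SD of 40.2 points. With a mouse left out, the main differences were -1.32 to 0.143 and -5.45 to -3.04, and mono-IL10 against PBS 2.29 to 4.70. CD8-type shares against PBS and mono-IL10 were -36.4 and -46.2 with 1 cell per mouse and -50.8 to -37.8 and -57.5 to -47.5 without a mouse, -21.9 and -30.8 with strict membership, -26.3 and -59.0 with at least 2 coreceptor UMIs and -27.1 and -47.8 after thinning, and mono-IL10 against PBS (main 9.72) 1.67 to 12.8, 32.6 with at least 2 coreceptor UMIs and 20.7 after thinning. UMIs per cell of IL10/2-Trikine against PBS were -1162 by medians (adjusted p = 0.0635, exact permutation) and -0.53 to -0.31 in log2 without a mouse, and the other comparisons -1.27 to -1.06 and 0.68 to 0.82.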
